A study of Mus musculus with 9 samples.

Results

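The major histocompatibility complex (MHC) and antigen processing genes of the mouse retina were taken from the gene count table as every row whose symbol starts with H2-, together with 14 genes named by symbol: B2m, Tap1, Tap2, Tapbp, Tapbpl, Psmb8, Psmb9, Psmb10, Psme1, Psme2, Nlrc5, Ciita, Cd74 and Erap1. This gave 59 of 55414 rows, 45 of them with an H2- symbol. A filter on low counts, a minimum count of 10 in 3 libraries, passed 26 of the 59, out of 17272 genes in the whole table. The other 33 included 10 members with 0 counts in every library. Of the 59 members, 44 belong to the class I arm, 14 to the class II arm, and 1, H2-Ke6, is an H2- symbol for a hydroxysteroid dehydrogenase gene that lies within the complex and has no role in antigen presentation.

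The libraries came from whole retinas of Balb/c mice, 3 per group. The groups were A74 with light damage, light damage, and control. Balb/c is an albino strain in which bright light injures photoreceptors. P2RX7 inhibition and the cGAS-STING pathway are named in the series title, and the design text gives protection of the retina by A74 as its subject. The labels used here give no identity, dose, vehicle or timing for A74, no duration of light, no age or sex of the mice, and no statement that replicates were separate animals. P-values therefore reflect only how these libraries vary, and part of that variation may be technical. All 9 libraries carry the same batch date, and the genotype label only repeats the library name.

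MHC class I molecules carry peptides from proteins made inside the cell to its surface, where CD8 T cells and natural killer cells read them. A polymorphic heavy chain pairs with beta-2-microglobulin. The peptides come from the proteasome, whose immunoproteasome form has its own catalytic subunits, and are pumped into the endoplasmic reticulum by the TAP transporter and loaded with the help of tapasin. Class II molecules are alpha-beta pairs that present peptides from the lysosome to CD4 T cells. They rely on the invariant chain (Cd74) and on the exchange factor H2-DM, and are normally found on professional antigen-presenting cells. NLRC5 is the main transactivator of class I genes and CIITA that of class II genes. Neurons and photoreceptors of the healthy retina are known for low class I levels, and microglia are the resident cells that can raise both classes.

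The heavy chain genes are many, near-identical and polymorphic. Balb/c carries another H2 haplotype than the reference genome, including an H2-L gene that the reference strain lacks and that closely resembles H2-D1. Reads of one heavy chain gene can therefore be counted under another. In transcripts of the reference strain (GENCODE vM21, build GRCm38), 31.6% of the 50-base windows of H2-T10 and 35.8% of those of H2-T22 also occurred in another gene, mostly in each other. The share was 22% for H2-Q4, 14.3% for H2-D1 and 8.11% for H2-K1. It was 0 for B2m, Erap1, Psmb8, Psmb9, Psmb10, Nlrc5, Ciita, H2-Ab1, H2-DMa and Cd74, and 59.3% for Psme2, which has a near-identical copy, Psme2b. Values of single heavy chain genes and of Psme2 are uncertain for this reason. The read length is not given in the sources used here, so 50 bases is a chosen window.

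The promoters of 5 class I arm members are shown because these genes carry the differences described next and have known control elements. They are RefSeq sequences of build GRCm38.p6, from 250 bases before to 50 bases after the gene's start, written 5′ to 3′ on the gene's strand, and they belong to the reference strain, not to Balb/c. B2m lies at chr2:122147437-122147736 on the plus strand. H2-K1 lies at chr17:34000298-34000597 on the minus strand, at the first of 2 starts listed. H2-D1 lies at chr17:35262844-35263143, Tap1 at chr17:34187306-34187605 and Psmb8 at chr17:34197945-34198244, all on the plus strand. Capitals mark matches to 5 motifs searched on both strands: a pair of GAAA runs with any 2 bases between them, the core of the interferon-stimulated response element (ISRE), TTCNNNGAA, the interferon-gamma-activated sequence (GAS), the kappa B site in the form that H2-K1 and H2-D1 carry, TGACG, the core of the site bound by CREB/ATF factors, and CCAAT, the Y box bound by NF-Y (ATTGG when read on the other strand).
B2m: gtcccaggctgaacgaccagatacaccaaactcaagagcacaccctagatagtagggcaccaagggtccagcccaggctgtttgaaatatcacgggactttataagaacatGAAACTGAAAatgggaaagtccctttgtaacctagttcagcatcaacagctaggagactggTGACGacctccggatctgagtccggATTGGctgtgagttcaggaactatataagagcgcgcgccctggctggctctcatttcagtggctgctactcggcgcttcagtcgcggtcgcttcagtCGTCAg
H2-K1: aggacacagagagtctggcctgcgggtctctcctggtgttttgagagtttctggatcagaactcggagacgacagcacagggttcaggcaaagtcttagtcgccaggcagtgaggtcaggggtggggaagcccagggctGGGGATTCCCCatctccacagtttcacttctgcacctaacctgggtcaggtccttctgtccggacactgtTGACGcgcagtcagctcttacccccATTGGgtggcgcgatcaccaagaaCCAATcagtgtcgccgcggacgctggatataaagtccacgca
H2-D1: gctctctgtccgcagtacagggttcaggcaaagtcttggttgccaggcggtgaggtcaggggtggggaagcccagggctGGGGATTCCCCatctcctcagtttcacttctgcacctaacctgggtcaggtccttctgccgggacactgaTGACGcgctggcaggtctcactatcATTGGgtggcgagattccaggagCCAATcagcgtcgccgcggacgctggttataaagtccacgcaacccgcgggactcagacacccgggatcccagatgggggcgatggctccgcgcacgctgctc
Tap1: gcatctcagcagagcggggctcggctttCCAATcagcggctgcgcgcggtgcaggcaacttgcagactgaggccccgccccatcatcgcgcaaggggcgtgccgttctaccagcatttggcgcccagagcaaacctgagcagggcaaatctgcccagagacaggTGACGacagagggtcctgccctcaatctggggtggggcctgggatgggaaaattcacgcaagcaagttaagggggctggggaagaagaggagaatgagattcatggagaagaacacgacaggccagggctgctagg
Psmb8: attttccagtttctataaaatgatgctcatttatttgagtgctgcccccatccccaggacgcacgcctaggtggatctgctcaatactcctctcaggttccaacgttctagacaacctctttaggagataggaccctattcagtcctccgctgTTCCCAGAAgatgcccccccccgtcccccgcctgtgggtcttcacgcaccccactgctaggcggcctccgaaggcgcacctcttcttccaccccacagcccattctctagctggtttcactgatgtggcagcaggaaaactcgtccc

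Of the 26 measured members, 17 had a promoter in the RefSeq table of 32851 promoters of 300 bases. The ISRE core occurred in 5 of the 17 (H2-T22, H2-T23, B2m, Erap1 and Psme1), and in 3.44% of all promoters. The kappa B site was written in the form that H2-K1 and H2-D1 carry, so its 2 matches among the 17, in these genes, were set by that choice. This form occurred in 0.0304% of all promoters. GAS matched H2-M3 and Psmb8, against 8.30% of all promoters. TGACG matched 9 of the 17 and CCAAT 10 of the 17, against 20.8% and 37.4% of all promoters. A TGACG followed by an ATTGG whose first bases lie 25 apart was present in H2-K1, H2-D1, H2-M3 and B2m among the 41 members with a promoter, and in 0.0578% of all promoters, 19 in number. The 25-base spacing was chosen after the sequences had been seen. The promoters of H2-K1 and H2-D1 were identical at 211 of 239 aligned bases (88.3%). Psmb9 and Tap1 start on opposite strands 226 bases apart, so their 300-base promoters overlap by 275 bases. A match is a description of these letters and not a tested site, and no match says only that the letters are not in this window.

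**Figure D1:**
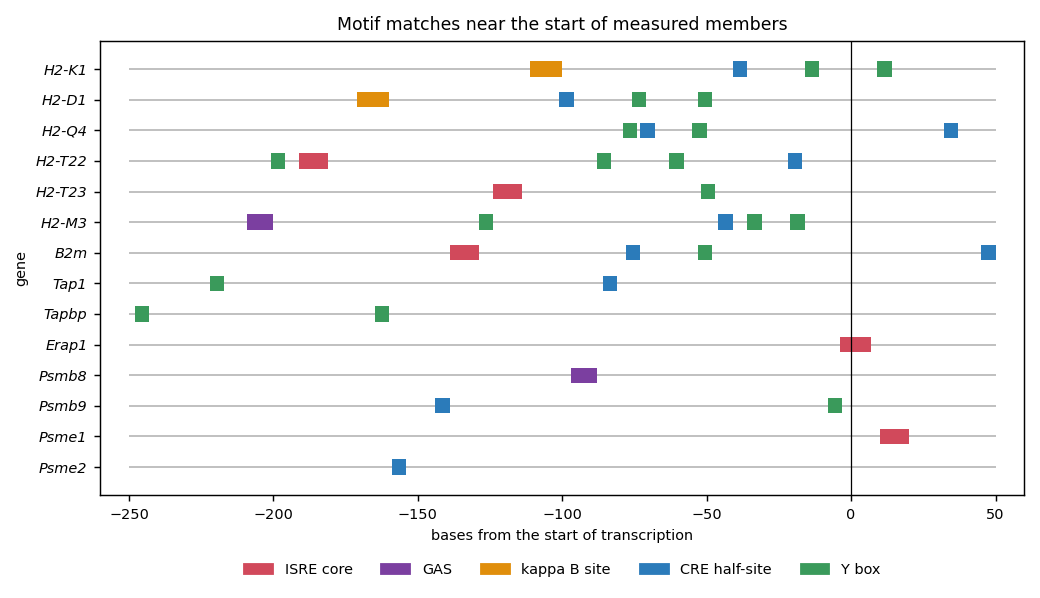
Positions of the 5 motifs in the 300-base promoters of the 14 measured members with at least 1 match, as distance in bases from the gene's start. The colour of a mark gives the motif, and TGACG is drawn as the CRE half-site. Marks of H2-K1 and H2-D1 show the kappa B site, TGACG and CCAAT in the same order.

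Library totals ran from 14787972 to 18740434 counts. Levels are CPM, counts divided by TMM-adjusted library sizes, in replicates 1, 2 and 3 in that order. Differences were tested with edgeR's quasi-likelihood test on all 17272 genes with Benjamini-Hochberg adjustment, and the threshold for a call was an adjusted p of 0.05. The size of a rise or fall is a log2 fold change, given with its standard error (SE). The comparisons of light damage with control and of A74 with light damage share the light damage libraries, so a library that is high in light damage adds to both.

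Libraries within a group differed. Light damage replicate 3 had the lowest level of its group in 15 of the 17 members that rose, and replicate 1 the highest in 16 of them. Summed Y-linked transcripts (Ddx3y, Kdm5d, Eif2s3y and Uty) were 0 CPM in all 3 A74 libraries, 256, 297 and 0 CPM in light damage and 336, 352 and 0 CPM in control. The sum of 8 anterior eye genes, which marks tissue from outside the retina, was 138, 15.9 and 13.7 CPM in A74 retinas, 238, 183 and 12.7 CPM in light damage and 202, 275 and 12.5 CPM in control. Xist, a transcript of the inactive X chromosome, was at 1157, 1030 and 1207 CPM in A74 retinas, 0.241, 0.104 and 0.0656 CPM in light damage and 0.495, 0.0603 and 1500 CPM in control. It separated every A74 library from every light damage library. Light damage replicate 3 was low in both Xist and the Y-linked transcripts, so a Y-linked term places it with the A74 libraries and control replicate 3, while an Xist term places it with the other light damage libraries. Between these 2 groups Xist and A74 cannot be told apart, and control is the only group with both high and low Xist. Counts are therefore also given with A74 replicate 1 and light damage replicate 3 left out, with the Y-linked transcripts as a term, and with Xist as a term, an alternative added once the data had been seen. The labelled tissue was checked with a retina marker. Gnat1, the transducin subunit of rods, had 10878 to 11753 CPM with A74, 6685 to 9115 CPM in light damage and 11017 to 11974 CPM in control.

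Light damage was set against control to ask which members differ after light. Most of the class I arm rose, from the heavy chains and B2m to peptide transport and the immunoproteasome, and no member of the class II arm was called. Of the 26 measured members 17 rose and 0 fell, when 25.8% of all genes tested were called, 13.0% higher and 12.8% lower. All 17 belonged to the 22 measured members of the class I arm, and 0 of the 4 of the class II arm were called. The median log2 fold change was 1.64 over the class I arm and 0.04 over the class II arm, against 0.008 over all genes. In 21 members, 20 of the class I arm, every light damage library lay above every control library, as in 20.6% of all genes. Without light damage replicate 3, 19 of 26 were called higher, and with Xist as a term 16, all but H2-D1. Of all genes, 30.8% were called without that library and 19.4% with the Xist term, in either direction. In bulk retina, more or fewer cells of a type and more or less RNA per cell cannot be told apart.

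With A74, 16 of the 26 were lower than in light damage and 0 were higher, when 18.3% of all genes were called, 9.07% higher and 9.19% lower. All 16 were of the class I arm, whose median log2 fold change was -1.41, while the class II arm had 0 of 4 called and a median of -0.16. In each of the 16 every A74 library lay below every light damage library, as in 17.7% of all genes. The count was 19 when A74 replicate 1 and light damage replicate 3 were left out. In that fit 25.7% of all genes were called, in either direction. With the Y-linked transcripts as a term, 9 were called lower, when the share of all genes called was 4.31%. The 7 no longer called were H2-K1, H2-T24, B2m, Tapbpl, Erap1, Psme1 and Nlrc5, with edgeR adjusted p from 0.0509 to 0.105. With Xist as a term edgeR called 0 of the 26, when 0.249% of all genes were called, and 12 had an unadjusted p under 0.05. All 16 had negative log2 fold changes in that fit, between -3.83 and -0.30, with adjusted p from 0.0692 to 0.452. In it the Xist term is set by control replicate 3 against the other control libraries alone. The calls with A74 against light damage given next are those without such a term.

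A74 with light damage was set against control to ask whether the members differed from undamaged retina. EdgeR called 0 of 26 members, DESeq2 also 0, when edgeR called 0.892% of all genes, 0.591% higher and 0.301% lower, and Psmb9 had the only unadjusted p under 0.05. In 7 members every A74 library lay above every control library, as in 11.8% of all genes, and the median log2 fold change was 0.21. The members with non-overlapping libraries were H2-K1, H2-D1, H2-Q4, B2m, Psmb9, Psmb10 and H2-DMa.

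**Figure D2:**
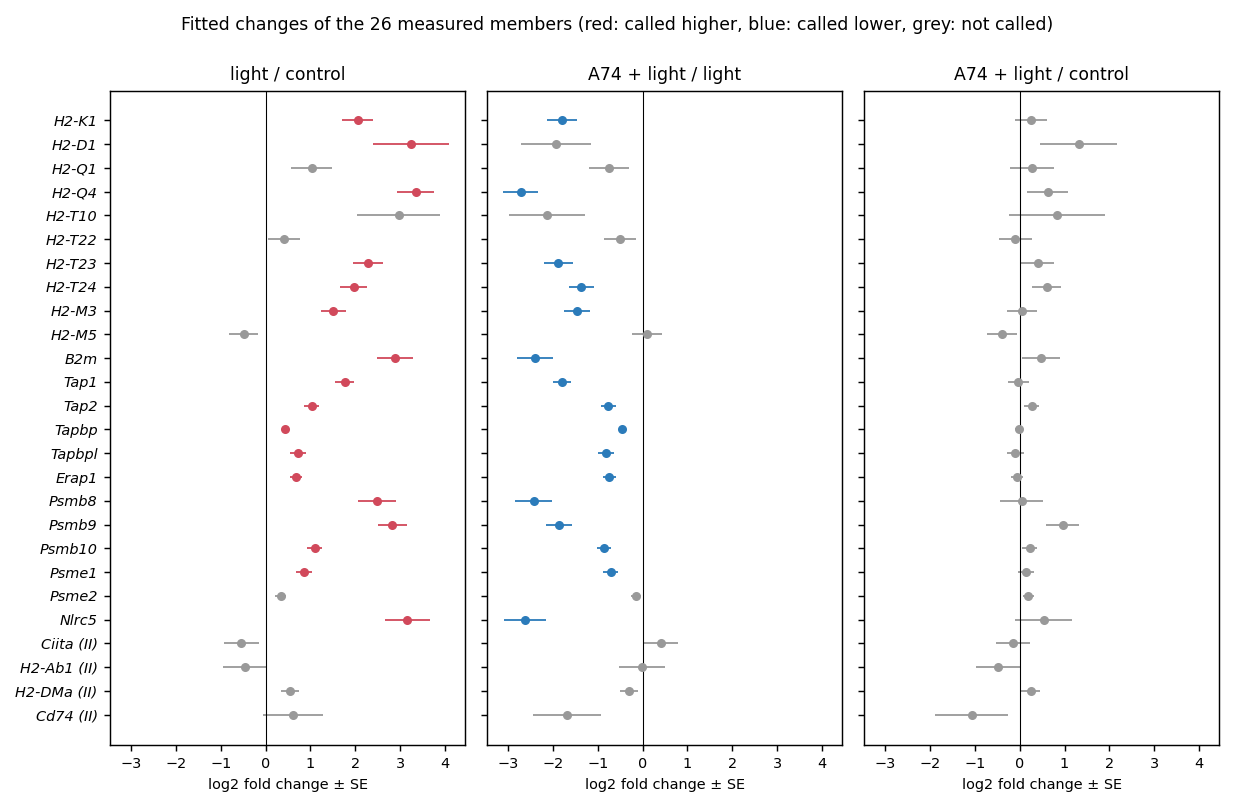
Log2 fold change of each of the 26 measured members, with the standard error as a bar, in 3 panels for light damage over control, A74 with light damage over light damage, and A74 with light damage over control. Red points were called higher, blue ones lower and grey ones not called at an adjusted p under 0.05, and II marks the class II arm. The 17 red points stand in the first panel, the 16 blue ones in the middle panel, and all 26 points of the last panel are grey.

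Of the classical class I heavy chains, H2-K1 had 15.6, 17.3 and 16.5 CPM with A74, 86.1, 52.2 and 33.7 CPM in light damage and 13.4, 14.7 and 13.6 CPM in control. The A74 libraries sat just above control without overlap, and all 3 light damage libraries above both. H2-K1 rose by 2.05 in light damage against control (SE 0.34, edgeR adjusted p = 0.00687). It fell by 1.80 with A74 against light damage (SE 0.34, edgeR adjusted p = 0.0149), a call that was lost when any 1 A74 library was left out (adjusted p 0.0515 to 0.0609) and in a fit of these 2 groups alone (0.0591). H2-D1 had 92.8, 27.9 and 22.05 CPM with A74, 312, 175 and 55.0 CPM in light damage and 17.7, 19.1 and 20.5 CPM in control. A74 replicate 1 lay above light damage replicate 3, so these groups overlapped. The rise of H2-D1 in light damage was 3.24 (SE 0.85, edgeR adjusted p = 0.0371), a call that was lost when any 1 control library, light damage replicate 1 or 2, or A74 replicate 2 was left out (adjusted p 0.0551 to 0.118). A fit of these 2 groups alone, no count filter and the Y-linked term also left it uncalled (0.0513 to 0.0595), as did the Xist term (0.105). H2-D1 was not called between A74 and light damage, at -1.93 (SE 0.78, edgeR adjusted p = 0.149), and at -3.28 without light damage replicate 3 and A74 replicate 1 (adjusted p = 0.00540).

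The ratio of H2-D1 to H2-K1 counts was 5.94, 1.61 and 1.34 with A74, 3.62, 3.35 and 1.63 in light damage and 1.33, 1.30 and 1.51 in control. The high ratios were thus in A74 replicate 1 and light damage replicates 1 and 2. The labels do not say whether all mice had the same H2 background, and whether it differed between libraries was not tested. The H2-D1, H2-T10, H2-T22 and H2-Ab1 values of A74 replicate 1 and light damage replicate 1 are therefore uncertain. So is the H2-D1 value of light damage replicate 2. Summed over the 32 class I H2- rows, where a read assigned to the wrong row of the group still counts once, the level was 121, 60.1 and 58.6 CPM with A74, 466, 277 and 122 CPM in light damage and 43.6, 46.8 and 48.5 CPM in control. Without H2-D1 the sum was 28.4, 32.2 and 36.5 CPM with A74, 154, 102 and 66.9 CPM in light damage and 25.9, 27.7 and 28.0 CPM in control. Every light damage library lay above every A74 and control library in both sums, by a small margin between light damage replicate 3 and A74 replicate 1 where H2-D1 is included. No test was made on these sums.

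**Figure D3:**
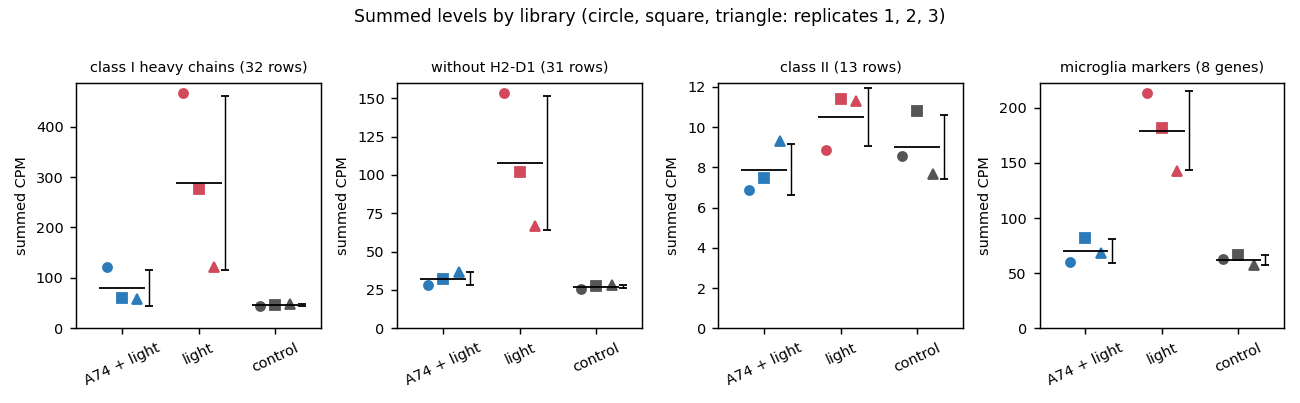
Summed CPM per library of the 32 class I heavy chain rows, the same without H2-D1, the 13 class II rows with Cd74, and 8 microglia markers, with A74 with light damage left, light damage in the middle and control right. Circles, squares and triangles are replicates 1, 2 and 3, and lines with bars the mean ± SD (n = 3). Class I heavy chains reach 122 to 466 CPM in light damage, and class II genes 8.84 to 11.4 CPM.

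Among the other heavy chains, 4 of 8 measured members rose in light damage and 4 of 8 fell with A74, namely H2-Q4, H2-T23, H2-T24 and H2-M3. H2-T23 encodes Qa-1, which presents class I leader peptides to natural killer cell receptors. H2-Q4 had 3.00, 3.11 and 3.45 CPM with A74, 33.0, 18.6 and 11.3 CPM in light damage and 1.91, 2.11 and 2.16 CPM in control, with no overlap between any groups. It rose by 3.34 in light damage (SE 0.41, edgeR adjusted p = 0.00105) and fell by 2.72 with A74 against light damage (SE 0.38, adjusted p = 0.00356). H2-T23 had 1.53, 1.50 and 2.99 CPM with A74, 9.02, 8.74 and 4.20 CPM in light damage and 1.48, 1.75 and 1.28 CPM in control. Its light damage libraries lay above all others, with log2 fold changes of 2.28 (SE 0.33, edgeR adjusted p = 0.000317) against control and -1.88 (SE 0.32, adjusted p = 0.00166) with A74 against light damage. H2-T24 rose by 1.96 in light damage and fell by 1.36 with A74 against light damage. H2-M3, which presents formylated bacterial and mitochondrial peptides, rose by 1.51 and fell by 1.46.

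H2-T10 and H2-T22, ligands of gamma-delta T cells that share the windows above, were not called. H2-T10 had 2.23, 0.538 and 0.797 CPM with A74, 10.35, 4.06 and 1.18 CPM in light damage and 0.565, 0.543 and 0.876 CPM in control. Its light damage libraries lay above control, with 2.97 (SE 0.93, edgeR adjusted p = 0.0593), which was called with the replicate number as a block at 2.71 (adjusted p = 0.0113) and without light damage replicate 3 at 3.43 (adjusted p = 0.00485). With A74 against light damage H2-T10 was at -2.13 (SE 0.85, edgeR adjusted p = 0.138), and at -2.58 without light damage replicate 3 (adjusted p = 0.0146). H2-T22 had 2.10, 4.01 and 4.71 CPM with A74, 2.53, 6.14 and 6.69 CPM in light damage and 4.10, 3.62 and 3.84 CPM in control, which overlapped. Leaving out light damage replicate 1 brought it past the threshold, at 0.74 in light damage against control (edgeR adjusted p = 0.0465) and -0.83 with A74 against light damage (adjusted p = 0.0421). Light damage replicate 1 was highest for H2-T10 and lowest for H2-T22 in its group. The ratio of H2-T10 to H2-T22 counts was 4.10 in light damage replicate 1 and 1.06 in A74 replicate 1, and 0.134 to 0.661 in the other 7 libraries. H2-Q1, at 1.03 in light damage against control (adjusted p = 0.113), and H2-M5, at -0.49 (adjusted p = 0.305), were not called either.

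B2m, the light chain shared by all class I molecules, had 18.9, 20.6 and 17.5 CPM with A74, 152, 97.5 and 51.9 CPM in light damage and 14.3, 14.2 and 12.4 CPM in control. No 2 groups overlapped. The mean was 19.0 ± 1.56 CPM with A74, 100.5 ± 50.2 CPM in light damage and 13.6 ± 1.07 CPM in control (SD, n = 3 each). B2m rose by 2.88 in light damage (SE 0.41, edgeR adjusted p = 0.00398) and fell by 2.40 with A74 against light damage (SE 0.39, adjusted p = 0.0101). Against control, A74 was higher by 0.48 (SE 0.43, edgeR adjusted p = 0.658), not called, while a fit of these 2 groups alone called it (0.49, adjusted p = 0.0193).

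**Figure D4:**
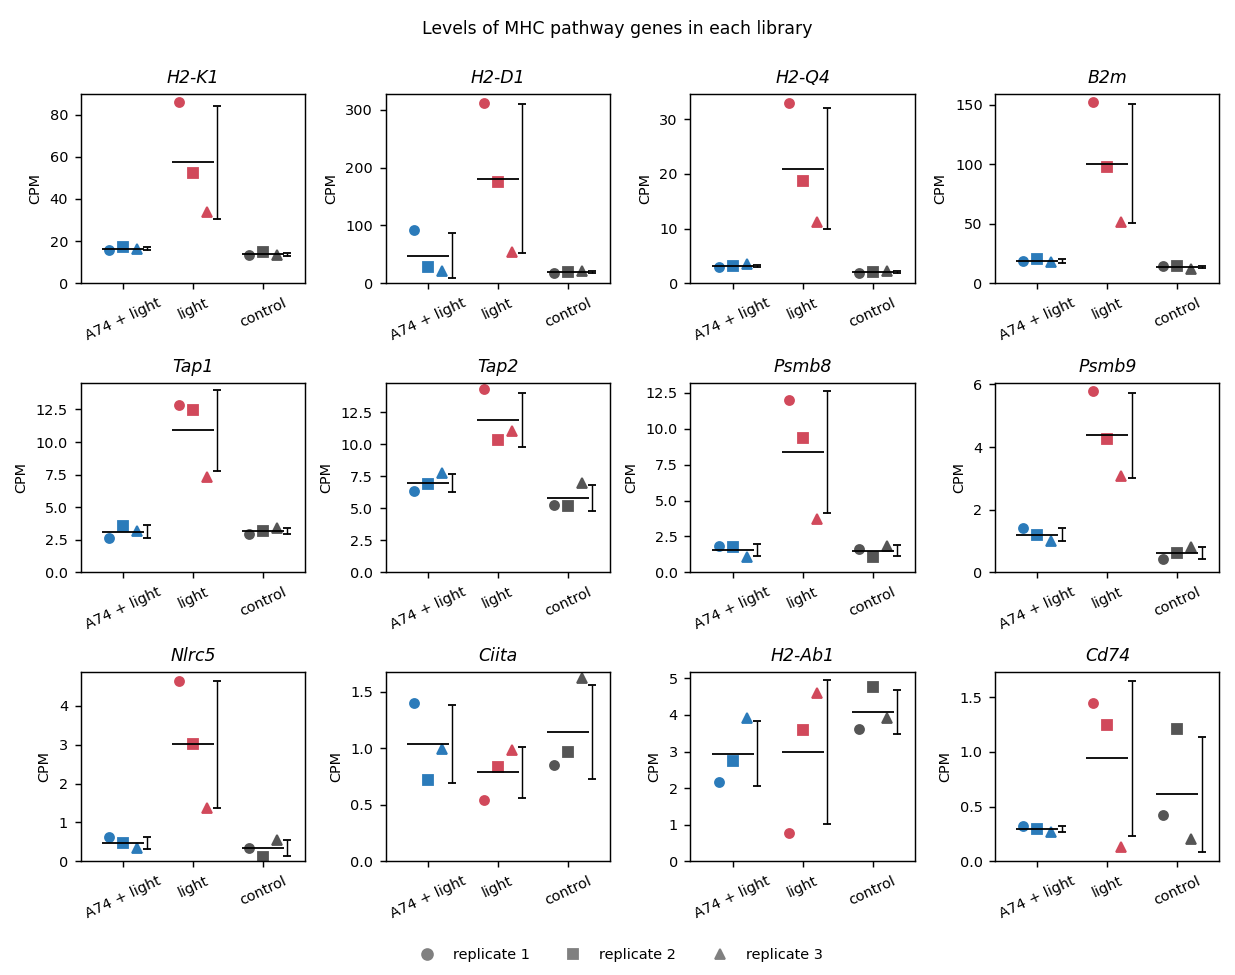
CPM of 12 members in each library, with A74 with light damage left, light damage in the middle and control right. Circles, squares and triangles are replicates 1, 2 and 3, and lines with bars the mean ± SD (n = 3). The light damage libraries of B2m lie between 51.9 and 152 CPM, above all A74 and control libraries, while those of H2-Ab1 spread from 0.782 to 4.59 CPM and overlap control.

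All 5 members of the peptide loading group rose in light damage and fell with A74 against light damage. Tap1 changed most and Tapbp least. Tap1, a subunit of the peptide transporter, had 2.61, 3.59 and 3.19 CPM with A74, 12.9, 12.4 and 7.35 CPM in light damage and 2.97, 3.20 and 3.44 CPM in control. Its light damage libraries lay above all 6 others, with a rise of 1.77 (SE 0.21, edgeR adjusted p = 3.69e-05) and a fall of 1.80 with A74 against light damage (SE 0.21, adjusted p = 8.30e-05). Tap2, the partner subunit, had 6.38, 6.88 and 7.77 CPM with A74, 14.3, 10.35 and 11.02 CPM in light damage and 5.30, 5.19 and 7.01 CPM in control. It rose by 1.03 (SE 0.16) and fell by 0.76 (SE 0.16). Tapbp, tapasin, was already at 57.8 to 65.1 CPM in control and rose by 0.43 (SE 0.07, edgeR adjusted p = 0.000617), and with A74 it fell by 0.45 against light damage (SE 0.07, adjusted p = 0.000834). Tapbpl, a tapasin-related editor of peptides, rose by 0.72 and fell by 0.82, and Erap1, which trims peptides in the endoplasmic reticulum, rose by 0.68 and fell by 0.74.

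Of the immunoproteasome genes and their activator, 4 of 5 rose and 4 of 5 fell with A74 against light damage, all but Psme2. Psmb8, Psmb9 and Psmb10 encode the catalytic subunits that replace Psmb5, Psmb6 and Psmb7. Psmb8 had 1.85, 1.73 and 1.06 CPM with A74, 12.0, 9.36 and 3.74 CPM in light damage and 1.62, 1.09 and 1.82 CPM in control, so A74 and control overlapped. It rose by 2.48 (SE 0.42, edgeR adjusted p = 0.00210) and fell by 2.43 (SE 0.41, adjusted p = 0.00379). Psmb9 had 1.403, 1.20 and 0.996 CPM with A74, 5.78, 4.26 and 3.08 CPM in light damage and 0.424, 0.603 and 0.809 CPM in control, so no groups overlapped. Psmb9 rose by 2.82 (SE 0.32, edgeR adjusted p = 2.53e-05) and fell by 1.86 (SE 0.29, adjusted p = 0.000560). Against control, A74 was higher by 0.96 (SE 0.36, edgeR adjusted p = 0.214), not called. Psmb10 had 7.46, 6.94 and 6.64 CPM with A74, 15.5, 12.7 and 10.101 CPM in light damage and 5.16, 6.64 and 6.13 CPM in control. It rose by 1.09 (SE 0.16) and fell by 0.86 with A74 against light damage (SE 0.16).

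The constitutive counterparts moved less in the same libraries. In light damage against control Psmb5 rose by 0.47 (SE 0.12, edgeR adjusted p = 0.0101), Psmb6 by 0.24 (SE 0.06), and Psmb7 was not called (0.13, SE 0.07). With A74 against light damage Psmb7 was called lower, at -0.20 (SE 0.07, edgeR adjusted p = 0.0479). Psmb5 (-0.24, edgeR adjusted p = 0.182) and Psmb6 (-0.14, edgeR adjusted p = 0.124) were not called there. The ratio of Psmb8 to Psmb5 counts was 0.112, 0.104 and 0.0623 with A74, 0.639, 0.416 and 0.206 in light damage and 0.0979, 0.0741 and 0.154 in control. All light damage ratios lay above the others. Psme1, an activator subunit, rose by 0.85 (SE 0.17, edgeR adjusted p = 0.00736) and fell by 0.71 with A74 against light damage (SE 0.17, adjusted p = 0.0219), a call lost without light damage replicate 2 and without any 1 A74 library (adjusted p 0.0565 to 0.0761), and in a fit of these 2 groups alone (0.0623). Psme2, at 0.34 (edgeR adjusted p = 0.0514), passed the threshold once light damage replicate 3 was left out (adjusted p = 0.00893).

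**Figure D5:**
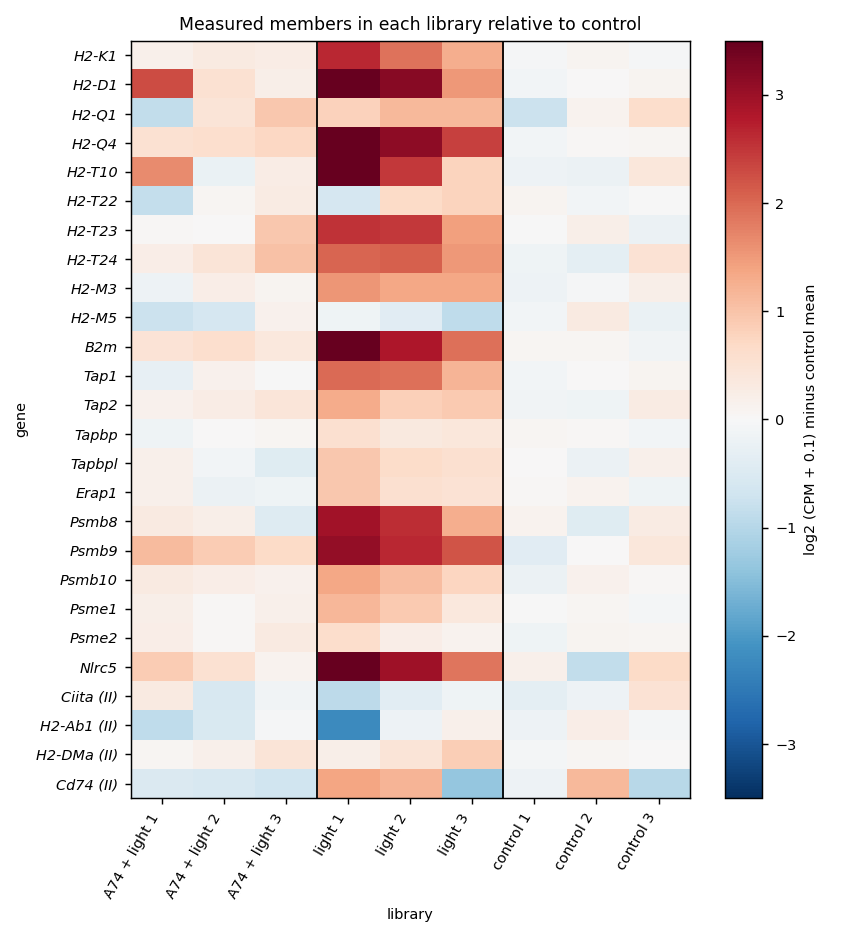
Log2 CPM of each measured member in each library minus its control mean, with a pseudocount of 0.1 CPM and colours that end at 3.5. Rows follow the members' roles, II marks the class II arm, and columns show A74 with light damage left, then light damage, then control. The rows of the 17 called members, all of the class I arm, are raised in the 3 light damage columns, with replicate 3 the lowest in 15 of them. Of the uncalled class I arm rows, H2-M5 lies below its control mean in all 3 light damage columns, and H2-T22 in that of replicate 1.

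Nlrc5, the class I transactivator, had 0.638, 0.479 and 0.332 CPM with A74, 4.63, 3.02 and 1.38 CPM in light damage and 0.353, 0.121 and 0.539 CPM in control. Its light damage libraries did not overlap the others. It rose by 3.16 (SE 0.51, edgeR adjusted p = 0.000461) and fell by 2.62 with A74 against light damage (SE 0.47, adjusted p = 0.00191). Ciita, the class II transactivator, had 1.403, 0.718 and 0.996 CPM with A74, 0.541, 0.832 and 0.984 CPM in light damage and 0.848, 0.965 and 1.62 CPM in control. These overlapped, and the change was -0.54 in light damage against control (SE 0.39, edgeR adjusted p = 0.337). The difference between the 2 transactivators' changes was not tested.

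Class II members that passed the filter were H2-Ab1, H2-DMa and Cd74, and none was called. H2-Ab1, the I-A beta chain, had 2.17, 2.75 and 3.92 CPM with A74, 0.782, 3.59 and 4.59 CPM in light damage and 3.60, 4.77 and 3.91 CPM in control. Light damage replicate 1 was lowest, at 13 counts, and the change in light damage was -0.46 (SE 0.50, edgeR adjusted p = 0.555). H2-DMa, the alpha chain of the exchange factor, had 3.57, 3.89 and 4.71 CPM with A74, 3.97, 4.73 and 6.30 CPM in light damage and 3.25, 3.56 and 3.44 CPM in control. Its light damage and its A74 libraries lay above control, at 0.54 for light damage (SE 0.21, edgeR adjusted p = 0.0614), which was called without light damage replicate 1 (0.69, adjusted p = 0.0312). Cd74 had 0.319, 0.299 and 0.266 CPM with A74, 1.44, 1.25 and 0.131 CPM in light damage and 0.424, 1.21 and 0.202 CPM in control. It was at -1.68 with A74 against light damage (SE 0.76, edgeR adjusted p = 0.147), and passed the threshold once light damage replicate 3 was left out (-2.15, adjusted p = 0.00731). Its direction turned with the Y-linked term (0.54) and with the Xist term (0.32), neither of which was called. Summed over the class II genes and Cd74, the level was 6.89, 7.48 and 9.30 CPM with A74, 8.84, 11.4 and 11.3 CPM in light damage and 8.55, 10.8 and 7.69 CPM in control.

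The alpha chain gene H2-Aa stayed at 0, 4 and 1 counts with A74, 4, 6 and 1 in light damage and 6, 4 and 0 in control. H2-Eb1 had 4, 1 and 2 counts with A74, 4, 6 and 1 in light damage and 1, 2 and 0 in control. Neither was tested. Of the members under the filter, 8 reached 10 counts in a library. H2-Ob, a chain of H2-O, which inhibits H2-DM, had 1, 0 and 1 counts with A74, 12, 10 and 0 in light damage and 3, 2 and 0 in control. H2-K2 had 1, 0 and 2 counts with A74, 11, 8 and 5 in light damage and 2, 1 and 6 in control, and H2-Q5 had 1, 8 and 3 counts with A74, 1, 28 and 9 in light damage and 0, 2 and 0 in control. H2-T-ps had counts only in light damage, 11, 5 and 0. The other 4, H2-Q10, H2-M6-ps, H2-DMb2 and H2-Ke6, reached 10 to 15 counts in single libraries.

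Per length, levels of different genes can be set side by side only roughly, because the length used here counts every annotated exon base of a gene. In CPM per kilobase of exon, B2m averaged 22.1 with A74, 117 in light damage and 15.9 in control, H2-D1 18.4, 70.0 and 7.41, and H2-K1 5.61, 19.5 and 4.72 in the same groups. Tapbp averaged 16.9 with A74, 23.1 in light damage and 17.2 in control. Without A74 replicate 1 the A74 value of H2-D1 was 9.68. By this length B2m was about level with Tapbp in control and above it in light damage. The exon length of Tapbp was 3628 bases and its longest transcript 2898 bases, while both were 860 bases for B2m. The near equality in control therefore depends on the length chosen.

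Other genes of the pathway were taken from lists, whose counts stand beside the shares of all genes: 13.0% higher and 12.8% lower in light damage, and 9.07% higher and 9.19% lower with A74 against light damage. Of 8 genes of lysosomal class II processing, 6 rose in light damage and 7 fell with A74 against light damage. Ctss, the protease that trims the invariant chain, had 15.2, 19.9 and 17.8 CPM with A74, 42.0, 35.6 and 28.9 CPM in light damage and 16.0, 16.0 and 15.0 CPM in control, with a rise of 1.18 (SE 0.13, edgeR adjusted p = 2.53e-05). Ctsl rose by 0.71, Ctsb by 0.74 and Cd63 by 1.09. Lgmn, another lysosomal protease, at 0.0967 (edgeR adjusted p = 0.351), and Sppl2a, which cleaves the remaining invariant chain fragment, at 0.0705 (adjusted p = 0.498), were not called. The difference between this list and the class II chains was not tested. Of 12 interferon signalling genes, 6 rose and 1 fell in light damage, and 4 fell with A74 against light damage. Irf8, a transcription factor of myeloid cells, rose by 2.24 (SE 0.31, edgeR adjusted p = 0.000147) and Irf1, which acts at class I promoters, by 1.44 (SE 0.27, adjusted p = 0.00237). Irf1 fell by 1.24 and Irf8 by 1.53 with A74 against light damage.

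Of 5 interferon ligand genes, Ifng, Ifnb1 and Ifnl3 had 0 counts in all 9 libraries, and Ifna4 and Ifnl2 had at most 1. A count of 0 in a single library still leaves room for an expected count of up to about 3 in that library. Of 7 promoter factors of MHC genes, 0 rose and 1 fell in light damage, Creb1, by 0.23. With A74 against light damage 1 of the 7 rose, Nfya, by 0.35 (SE 0.06, edgeR adjusted p = 0.00145), and 0 fell. Of 7 loading chaperones 1 rose and 2 fell, of 6 peptidases 1 rose and 1 fell, which is near the share of all genes, and of 4 measured costimulation genes 0 were called. Against control, A74 had 0 called genes in every one of these lists.

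Many microglia markers and some macrophage markers moved with the class I arm. Of 8 microglia markers 5 rose in light damage, when 13.0% of all genes were called higher, and 6 fell with A74 against light damage, when 9.19% were called lower. The summed level of these markers was 60.5 to 81.6 CPM with A74, 142 to 213 CPM in light damage and 57.1 to 66.4 CPM in control. Of 4 measured monocyte and macrophage markers, Adgre1 rose by 3.57 and Cd68 by 3.96 in light damage, while Mrc1 (1.95, edgeR adjusted p = 0.155) and Lyve1 (-0.0777, adjusted p = 0.576) were not called. With A74 against light damage Adgre1 fell by 3.57, Cd68 fell by 3.71 and Mrc1 fell by 4.36, and Lyve1 was not called (-0.14). Mrc1 was near the floor, with 2, 0 and 1 counts with A74, 33, 40 and 3 in light damage and 5, 12 and 0 in control. Ccr2, Ly6c2 and Ms4a7 were under the filter. Dendritic markers summed to 11.7 to 13.3 CPM with A74, 12.9 to 13.7 CPM in light damage and 10.9 to 13.1 CPM in control, although Itgax rose by 2.70 (SE 0.52, edgeR adjusted p = 0.00127). T cell markers summed to at most 0.731 CPM in any library, with Cd3e and Cd8b1 at 0 counts in all, and natural killer markers to at most 0.0520 CPM. The 5 B cell markers summed to 1.85 to 3.43 CPM, and of the 2 measured 0 were called in any comparison. Of 4 endothelial markers, Kdr rose by 0.82 in light damage (SE 0.10, edgeR adjusted p = 0.000140) and fell by 0.73 with A74 against light damage (SE 0.10, adjusted p = 0.000621). Pecam1, Cdh5 and Cldn5 were called in neither comparison, and were at 0.16, 0.40 and 0.20 in light damage against control. The part of these markers in the class I values was not tested.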

How the data were processed

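RNA sequencing of 9 Balb/c retina libraries gave 1 deposited table of whole-number read counts per gene, not normalized by the authors as judged from totals that differ between libraries. Per the submitters' processing notes, the tools were Bowtie2, RSEM 1.3.1 and DESeq2 1.4.5 and the build was GRCm39, with no role stated for each. If the counts are rounded RSEM estimates, reads of near-identical genes were split between them. Neither strand nor annotation release is given in the sources used here.

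Groups and replicate numbers came from the titles. Genes passed edgeR's filterByExpr (minimum count 10), were TMM-scaled and went into the quasi-likelihood test (robust) of edgeR 4.0.16 in R 4.3.3, in 1 fit of 9 libraries with Benjamini-Hochberg adjustment over 17272 genes. SE is the fold change over the square root of F. The test was checked on simulated counts. The members, pathway lists, markers and alternatives were chosen with earlier results of these data known. Every measured member could be named, members under the filter if they reached 10 counts, and up to 4 genes with the smallest adjusted p per pathway list. Psmb7, H2-Ea, Xist, Lgmn, Sppl2a, the interferon ligands and single marker genes were named after their values were seen. CPM use TMM-scaled library sizes. Motifs were searched in RefSeq promoters.

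Alternatives were DESeq2 size factors, DESeq2 1.42.0, no filter, the 2 groups alone, a replicate block, Y-linked or anterior tissue terms, and libraries left out. A term for Xist above 1000 counts was added after seeing the data. Same-numbered light damage and control libraries deviated together (correlations 0.116, 0.246 and 0.311), over a threshold of 0.1. Light damage replicate 1 correlated slightly more with control replicate 2 (0.127). Replicate 3 of both groups was also low in Y-linked and anterior eye transcripts, unlike replicates 1 and 2. The labels used here state no pairing, and these correlations do not show one. The main fit therefore had no block, and the block is given only as an alternative.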

Additional observations from a re-analysis of the deposited data

How the results depend on the processing

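In light damage against control the number of members called higher stayed between 16 and 19 when 1 library was left out. The share of all genes called, in either direction, ran from 16.0% to 30.8% in these fits. Leaving out 1 library gave 0 to 1 class II members called higher, H2-DMa without light damage replicate 1, and the anterior tissue term also gave 1. With A74 against light damage, members called lower numbered 14 to 18 with 1 library left out, and 9 with the Y-linked term, all 9 of the class I arm. The share of all genes called was 9.78% to 25.4% with 1 library left out and 4.31% with the Y-linked term. With Xist as a term, members called lower numbered 0, and 0 in the class I arm, when 0.249% of all genes were called. That term was added once the data had been seen. In its fit the SE for the 16 members ran from 0.13 to 1.13 because control replicate 3 alone sets the term. Class II members called lower numbered 0 to 1 with 1 library left out, 1 (Cd74) without light damage replicate 3 and A74 replicate 1 together, and 2 (Cd74 and H2-Ob) without a count filter. With A74 against control, members called higher numbered 1, B2m of the class I arm, in a fit of these 2 groups alone. Of all genes, 3.33% were called in that fit. The log2 ratio of the summed class I heavy chains for A74 against control ran from 0.36 without A74 replicate 1 to 0.97, against 0.79 with all libraries. The causes were not tested.

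With the replicate block, 18 members were called higher in light damage against control and 17 lower with A74 against light damage, H2-T10 being added both times, and 0 with A74 against control. The shares of all genes called were 26.6%, 19.5% and 0.787% in these comparisons, in the same order. In the comparisons with A74 the correlations of same-numbered libraries were -0.093 to 0.137, and the block changed no other call of a member.

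Signs that turned belonged to changes that were not called with all libraries, though Cd74 was called under the alternatives named above. With A74 against light damage, H2-Ab1 was 0.0644 with the replicate block, 0.57 without both libraries, and -0.47 to 0.40 with 1 library left out. In the same leave-one-out fits Psme2 ran from -0.24 to 0.0119 and H2-M5 from -0.24 to 0.28, and with the Y-linked term Ciita was -0.0409 and Cd74 0.54. With the Xist term Ciita was -0.43, H2-Ab1 0.0821 and Cd74 0.32. With A74 against control, leave-one-out values ran from -0.15 to 0.26 for Psmb8, from -0.14 to 0.0833 for Tap1, from -0.0689 to 0.0419 for Tapbp and from -0.42 to 0.19 for Ciita. In that comparison the Y-linked term gave 0.23 for Tap1, 0.0518 for Tapbp and 1.09 for Cd74, the Xist term -0.00138 for Tap2, 0.0839 for Tapbp, -0.23 for Psmb8, -0.15 for Nlrc5 and 0.53 for Cd74, the anterior tissue term 0.0356 for Tap1, and leaving out both libraries 0.0833 for Tap1, 0.0416 for Tapbp and -0.0867 for Psmb8. At 3 libraries a group and a few counts per library, class II chains such as H2-Aa and H2-Eb1 are too shallow to show a change.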

Other observations

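Of class I-like genes outside the H2- symbols, 1 of 4 measured rose in light damage, Mr1, which presents microbial vitamin B metabolites, by 0.73 (SE 0.17, edgeR adjusted p = 0.00407). It had 4.59, 4.01 and 4.78 CPM with A74, 12.3, 9.88 and 8.26 CPM in light damage and 5.72, 6.82 and 5.80 CPM in control, so that all A74 libraries lay below control as well. With A74 against light damage Mr1 fell by 1.19 (SE 0.17, edgeR adjusted p = 0.000289) and Fcgrt, the neonatal Fc receptor heavy chain that also pairs with beta-2-microglobulin, by 1.12 (SE 0.27, adjusted p = 0.0121). Hfe, an iron-regulating relative, fell by 0.70 in light damage (SE 0.17, edgeR adjusted p = 0.0134).

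H2-Ea, which is a pseudogene in the reference strain, had 1, 1 and 0 counts with A74, 0, 5 and 1 in light damage and 8, 9 and 0 in control. H2-T22 and H2-Ab1 were lowest in light damage replicate 1 (42 and 13 counts) and A74 replicate 1 (33 and 34 counts), the libraries with the highest ratios of H2-D1 to H2-K1 and of H2-T10 to H2-T22 in their groups. The low H2-T22 counts enter the ratio of H2-T10 to H2-T22 as its denominator.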
